A study of Mus musculus with 108 samples.

Results

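The genes described here are 40 genes of autophagy and the lysosome, taken by name from a fixed list. The list was made with earlier results of these data known, so the choice was not independent of them. The genes were 40 of the 20923 protein-coding genes, and of the 26089 genes in all, that have a curated RefSeq transcript on chromosomes 1 to 19 and X of mm10 (GRCm38.p6). For each gene, the chromatin state was read at the bin of the transcription start site (TSS), in the 21 bins that overlap the TSS and the 2 kb on either side, and over the gene body, from the start to the end of the longest curated transcript.

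Autophagy is the route by which a cell encloses part of its cytoplasm in a double membrane, the autophagosome, and delivers it to the lysosome for digestion. The ULK kinase complex starts the process, a lipid kinase complex marks the membrane with phosphatidylinositol 3-phosphate, ATG2 and ATG9 supply lipid, and a conjugation machinery related to the ubiquitin system couples proteins of the Atg8 family, such as LC3, to the growing membrane. Cargo receptors then bind both the cargo and LC3. In the liver, autophagy is known to be induced by fasting, when the kinase complex mTORC1 is inactive and the transcription factors TFEB and TFE3 enter the nucleus and act on lysosomal and autophagy genes.

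The data are chromatin segmentations of livers from female C57BL/6 mice, fixed in formalin and kept in paraffin. They came from mice on a standard diet at 3 months (SD 3m, 8 mice, 30 ChIP-seq libraries) and at 12 months of age (SD 12m, 8 mice, 29 libraries), and from mice aged 12 months kept on 30% caloric restriction since the age of 3 months (CR 12m, 9 mice, 29 libraries). The authors merged the libraries of each group by mark and used ChromHMM, a hidden Markov model, to give every 200-bp bin of the genome 1 of 8 states learned from H3K4me3, H3K27me3, H3K27ac and H3K4me1. State 1 (Active TSS) carries H3K4me3 and H3K27ac, and state 2 (Flanking TSS) carries these together with H3K4me1. State 3 (Active enhancer 1) carries H3K27ac and H3K4me1, state 4 (Active enhancer 2) carries weak H3K27ac and state 5 (Poised enhancer) H3K4me1. State 6 (Repressed Polycomb) carries H3K27me3 alone, state 7 (Repeats/cLAD) has weak H3K4me3 and very little H3K27me3, and state 8 (Quiescent) has none. States 1 and 2 are called TSS states below, and states 3 to 5 enhancer states.

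As each group had 1 segmentation of merged libraries, no difference between groups could be set against the spread between mice, no test was made, and all counts below are descriptions of these 3 segmentations. The number of reads behind a state is unknown. The comparisons of SD 12m and CR 12m with SD 3m share the latter, and an error there would enter both. Where 3 values follow each other without group names, they follow the order SD 3m, SD 12m, CR 12m. H3K4me3, the mark that separates TSS states from enhancer states, was represented by 7, 8 and 5 libraries in the 3 groups. Over the whole genome, state 1 covered 0.414%, 0.363% and 0.3% of the bins in the 3 groups, and state 2 covered 1.13%, 0.425% and 0.361%. The part that the number of libraries or these genome-wide shares had in the results on the 40 genes was not tested. The labelled tissue was checked against marker genes: the TSS bins of the 10 hepatocyte markers examined were in states 1, 3 or 4 in all 3 groups. Of these, 3, 7 and 7 were in a TSS state in the 3 groups. Apob, Cps1 and Tat were in state 1 throughout. Fgb, Cyp2e1 and Pck1 were in state 4 in SD 3m and state 1 in both older groups, a difference in the other direction from that of the 40 genes below. Alb stayed in state 4 and Hnf4a in state 3 in all groups. Apoa1 was in states 4, 1 and 3, and Serpina1a in states 4, 4 and 1. Even strong hepatocyte genes such as Alb were thus not always in a TSS state. The TSS bins of 12 markers of other liver cells were spread over states 1 to 8, with 1, 0 and 1 in a TSS state and 6, 6 and 5 in enhancer states. The macrophage gene Cd68 and the endothelial gene Lyve1 were in state 3 in all groups, the Kupffer cell gene Clec4f in state 6 and the stellate cell gene Reln in state 8. A merged segmentation of whole liver does not separate cell types.

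Many lysosomal genes carry a CACGTG box near the start, the sequence that TFEB and TFE3 bind, most often within the longer palindrome TCACGTGA. RefSeq promoter windows of GRCm38.p6, from 250 bases before to 50 bases after the start, were available for 32 of the 40 genes and for 16415 of the 20923 protein-coding genes. CACGTG, which reads the same on both strands, was present in 8 of the 32 windows (25.0%), against 8.17% of all windows and 11.0% of the 7561 windows of genes whose TSS bin was in a TSS state in SD 3m. The 8 genes were Atg3, Atg5, Atg14, Bnip3, Lamp1, Ctsd, Ctsl and Mcoln1. TCACGTGA, each copy of which also counts as a CACGTG, was present in 3 windows (9.38%), those of Atg3, Ctsd and Mcoln1, against 1.3% of all windows and 2.3% of those in a TSS state in SD 3m. The bases before the start are shown, 5′ to 3′ and with CACGTG in capitals, for the genes with the palindrome and for Lamp1, whose 4 boxes lie within 61 bases of the start and whose TSS bin had another state in CR 12m; of Atg3, whose window overlaps exons, only the 30 bases around the palindrome are given, and the others show the 150 bases before the start.
Ctsd (chr7:142387828-142387977, minus strand): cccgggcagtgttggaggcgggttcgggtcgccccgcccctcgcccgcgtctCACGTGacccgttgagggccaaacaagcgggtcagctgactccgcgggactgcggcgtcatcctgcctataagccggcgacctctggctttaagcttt
Mcoln1 (chr8:3500369-3500518, plus strand): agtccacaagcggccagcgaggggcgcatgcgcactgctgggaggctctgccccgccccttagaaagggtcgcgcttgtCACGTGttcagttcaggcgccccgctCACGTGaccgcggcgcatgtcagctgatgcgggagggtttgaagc
Atg3 (chr16:45158746-45158775, plus strand): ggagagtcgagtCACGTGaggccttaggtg
Lamp1 (chr8:13159011-13159160, plus strand): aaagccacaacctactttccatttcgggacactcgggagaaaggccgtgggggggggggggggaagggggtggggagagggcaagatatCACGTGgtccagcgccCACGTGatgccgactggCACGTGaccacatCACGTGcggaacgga
Counted from the start, with -1 as the base just before it, the first base of the palindrome was at -99 in Ctsd, -46 in Mcoln1 and -72 in Atg3, and the boxes of Lamp1 began at -61, -45, -28 and -15. The windows of the 40 genes were rich in CpG, with a median of 22.5 CG dinucleotides in 300 bases, against 14 for all windows and 22 for those in a TSS state in SD 3m, and a range from 7 in Gabarap to 55 in Atg4b. The same stretch of 150 bases is given, with CG in capitals, for the other genes whose TSS bin had another class in CR 12m than in SD 3m, where available. Becn1, Ctsb and Map1lc3a had no window, and the bases before the start of Tfe3 overlap exons.
Pik3r4 (chr9:105642845-105642994, plus strand): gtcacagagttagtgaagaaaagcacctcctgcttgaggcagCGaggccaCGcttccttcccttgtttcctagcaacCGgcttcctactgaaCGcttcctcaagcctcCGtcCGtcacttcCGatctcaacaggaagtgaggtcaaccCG
Atg14 (chr14:47568435-47568584, minus strand): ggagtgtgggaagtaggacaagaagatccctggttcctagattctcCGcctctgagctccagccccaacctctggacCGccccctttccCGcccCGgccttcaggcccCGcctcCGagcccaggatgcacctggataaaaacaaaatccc
Gabarapl1 (chr6:129533042-129533191, plus strand): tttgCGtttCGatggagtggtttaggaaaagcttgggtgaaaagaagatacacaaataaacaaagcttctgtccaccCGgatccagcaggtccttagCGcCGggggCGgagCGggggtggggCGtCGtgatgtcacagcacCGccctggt
These stretches held 8, 6 and 10 CG dinucleotides, against 17 in Ctsd, 15 in Mcoln1 and 11 in Lamp1. Lamp1 had itself left the TSS states in CR 12m, and Ctsd and Mcoln1 had not. Whether the number of CG goes with the class at the TSS bin was not tested.

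In SD 3m, the TSS bin of all 40 genes was in a TSS state, state 1 for 31 and state 2 for 9. In SD 12m, 38 genes (95.0%) were still in a TSS state, 30 of them in state 1, and in CR 12m 32 genes (80.0%) were, 24 of them in state 1. Of all protein-coding genes, 45.2%, 39.3% and 34.7% had their TSS bin in a TSS state. Compared with SD 3m, 2 genes had another state class at the TSS bin in SD 12m (5.0%), against 23.3% of all protein-coding genes, and both had left the TSS states (7.23% of all genes did). In CR 12m, 8 genes had another class than in SD 3m (20.0%), against 26.2% of all genes, and all 8 had left the TSS states (11.7% of all genes). All 40 genes started in a TSS state, so another class than in SD 3m could only mean that they had left it. Most genes did not start there. The nearer background is therefore the 9457 genes in a TSS state in SD 3m, of which 16% had left it at SD 12m and 25.9% at CR 12m. The shares of the 40 genes, 5.0% and 20.0%, were below these. Every TSS bin that left the TSS states went to state 3 or 4, none to states 5 to 8. Of the 9457 genes, 1512 and 2445 had left at SD 12m and CR 12m, 1378 and 2301 of them for states 3 to 5. None of the 40 genes had state 6 or 7 within 2 kb of the TSS in any group, and few of the 9457 did: state 6 was found there in 3.84%, 1.69% and 1.51% of them and state 7 in 2.15%, 1.92% and 0.909%.

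The class was the same in all 3 groups for 31 genes (77.5%, against 65.9% of all protein-coding genes and 70.7% of the 9457). It differed in CR 12m alone for 7 genes (17.5%, against 10.8% and 13.3%), namely Becn1, Pik3r4, Atg14, Gabarapl1, Tfe3, Lamp1 and Ctsb. Map1lc3a differed in SD 3m alone (2.5% of the 40 genes, against 13.7% of all genes and 11.6% of the 9457). Optn differed in SD 12m alone (2.5%, against 7.9% and 3.45%). The share that differed in SD 3m alone was thus the one furthest below the 9457. Between the groups of equal age, CR 12m against SD 12m, 8 genes had another class (20.0%, against 20.4% of all genes and 17.7% of the 9457), of which 7 had left the TSS states (17.5%, against 6.81% and 13.3%) and Optn had entered them. The lipid kinase complex held 3 of the 8 genes that were outside the TSS states in CR 12m, the Atg8 family and the lysosomal genes 2 each, the nutrient signalling genes 1, and the ULK complex, the membrane supply genes, the conjugation machinery and the cargo receptors none. These role groups had 4 to 7 genes each, and no difference among them was tested.

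**Figure D1:**
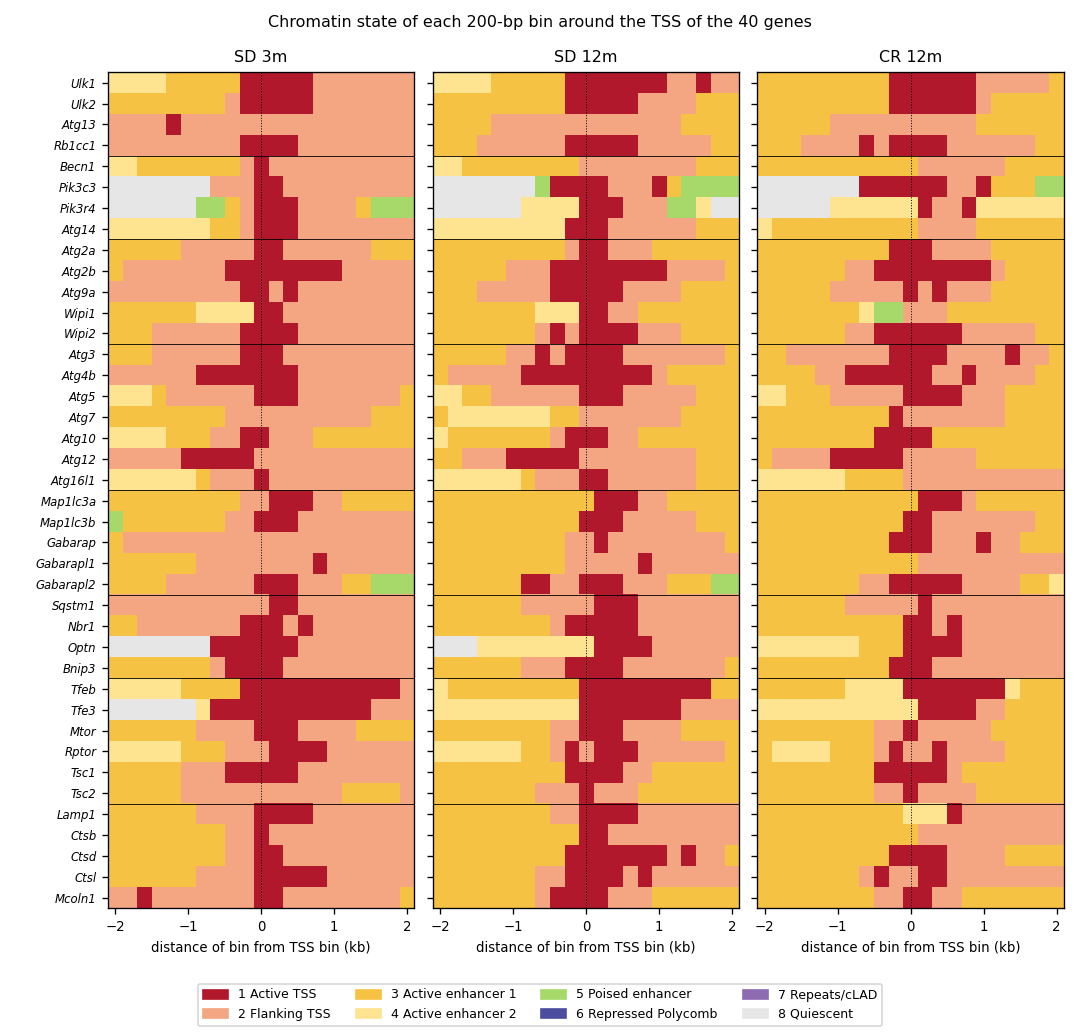
Chromatin state of the 21 bins of 200 bp around the TSS of each of the 40 genes (rows, grouped by role and read in the direction of transcription) in SD 3m, SD 12m and CR 12m; the horizontal axis is the distance from the TSS bin in kb and the dotted line marks the TSS bin. TSS states (red and salmon) fill most of the downstream side in SD 3m and give way to Active enhancer 1 (orange) from both ends in SD 12m and CR 12m.

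In each group, all 40 genes kept at least 1 bin in a TSS state within 2 kb of the TSS, and 40, 40 and 39 genes had such a bin at the TSS bin or next to it. Of the 9457 genes, 100.0%, 96.1% and 92.5% had one within 2 kb, and 100.0%, 92.1% and 87.1% at the TSS bin or next to it. For 9 of the 10 cases in which a TSS bin left the TSS states, the bin 200 bp downstream was in state 1 or 2. The exception was Lamp1 in CR 12m, whose first TSS-state bin lay 600 bp downstream. Upstream of the TSS bin none of these cases kept a TSS-state bin. Seen along the gene, 39, 30 and 26 of the 40 genes were in a TSS state at 200 bp upstream, whereas at 200 bp downstream the counts were 40, 40 and 39. At these bins the 9457 genes had an asymmetry in the same direction, with 91.3%, 68.6% and 58.5% upstream and 98.8%, 90.9% and 85.6% downstream. Over the 400 bins upstream of the TSS bins, TSS states held 47.2%, 25.0% and 21.2% in the 3 groups. On the downstream side they held 90.8%, 71.2% and 64.5%.

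**Figure D2:**
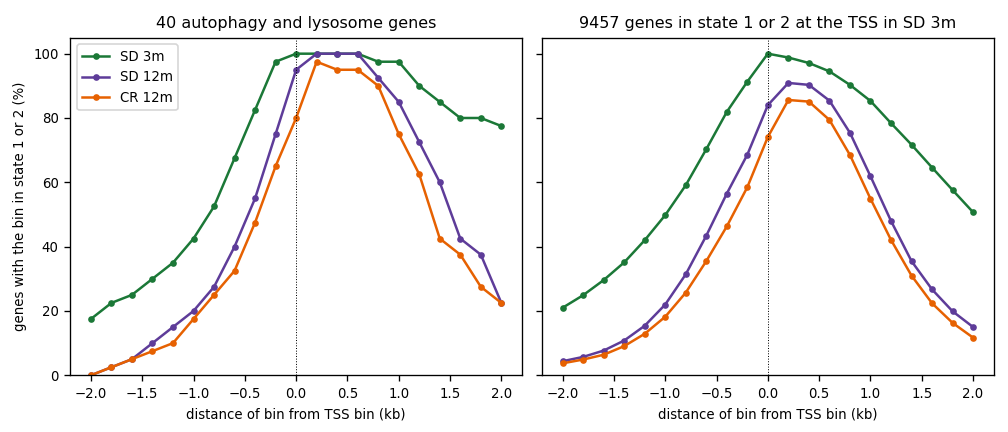
Percent of genes with a bin in state 1 or 2 (vertical axis) by distance of the bin from the TSS bin in kb (horizontal axis, negative is upstream), for the 40 autophagy and lysosome genes (left) and the 9457 protein-coding genes with the TSS bin in a TSS state in SD 3m (right). In both panels SD 3m lies highest, and at the TSS bin the 40 genes stood at 100.0%, 95.0% and 80.0% against 100.0%, 84.0% and 74.1% of the larger set, whose SD 3m value of 100.0% is set by its choice.

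Within 2 kb of the TSS, the 40 genes had medians of 14, 11 and 9 of the 21 bins in TSS states in the 3 groups. The 9457 genes had medians of 14, 9 and 8. SD 12m had fewer such bins than SD 3m in 38 of the 40 genes, as many in Ulk1 and Bnip3, and more in none; of all protein-coding genes 47% had fewer, many of the rest having no such bin at all, and of the 9457 genes 90.8%. CR 12m had fewer than SD 3m in 39 genes and as many in Atg3, against 49.2% of all genes and 94.6% of the 9457. Between CR 12m and SD 12m the picture was mixed, with fewer bins in CR 12m in 25 genes, as many in 7 and more in 8, against 29.4% of all genes with fewer and 57.0% of the 9457.

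The bins that left the TSS states were mostly of state 2. Over the 840 bins around the 40 genes, state 2 held 453, 265 and 249 bins in the 3 groups, while state 1 held 139, 158 and 126. Of the 453 bins of SD 3m, 256 (56.5%) were in state 2 again in SD 12m, 152 (33.6%) in state 3 and 38 (8.39%) in state 1. In CR 12m 225 (49.7%) were in state 2 again, 192 (42.4%) in state 3 and 31 (6.84%) in state 1. State 3 differs from state 2 by the absence of H3K4me3. Around the 9457 genes, 41.7% of the initial state 2 bins had become state 3 bins in SD 12m, and 48.6% had in CR 12m. Of the initial 139 state 1 bins, 86.3% kept that state in SD 12m (77.1% around the 9457 genes) and 68.3% in CR 12m (66.7%). Counted by gene, state 1 bins were more numerous in SD 12m than in SD 3m for 17 genes and less so for 6, and in CR 12m more numerous for 14 and less so for 21. Of the 9457 genes, 42.3% had more and 27.7% fewer in SD 12m, and 30.7% had more and 42.9% fewer in CR 12m.

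The width of the promoter domain was also taken as a length, which can reach beyond the 2 kb and need not hold the TSS bin. The longest unbroken stretch in TSS states that touched the TSS ± 2 kb had a median of 3600 bp, 2200 bp and 1800 bp in the 3 groups, against 3200, 1800 and 1600 bp for the 9457 genes. It was shorter than in SD 3m in 39 of the 40 genes in SD 12m, against 48.2% of all protein-coding genes and 92.8% of the 9457, the exception being Ulk1 with 2400 bp in both. It was shorter in all 40 genes in CR 12m, against 50% and 95.7%. The ratio of SD 12m to SD 3m had a median of 0.639 and ran from 0.244 in Gabarap to 1.0 in Ulk1, and that of CR 12m to SD 3m had a median of 0.556 and ran from 0.2 in Gabarap to 0.917. CR 12m had a shorter stretch than SD 12m in 26 genes, an equal stretch in 6 and a longer stretch in 8 (30.3% of all genes and 58.6% of the 9457 were shorter).

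Gabarap, an Atg8 family protein, had the widest domain of the 40 in SD 3m, with 9000 bp, 2200 bp and 1800 bp in the 3 groups, the latter 2 at the median of the older groups. Sqstm1, which encodes the cargo receptor p62, followed with 7000, 3200 and 3000 bp, and Nbr1, a related receptor, with 6400, 4800 and 2600 bp. The narrowest domains in SD 3m, 1400 bp, were those of Atg10, an E2-like enzyme of the conjugation machinery, and Map1lc3a. In SD 12m and CR 12m the narrowest was that of Wipi1, with 800 and 600 bp, and the order of the genes by width was thus not kept. A start site of another protein-coding gene lay within 2 kb of that of 8 genes (Atg13, Atg2b, Atg9a, Atg3, Atg4b, Atg12, Nbr1 and Tsc2), so that their stretch may belong to 2 promoters; its median was 5100 bp, 3000 bp and 2400 bp in the 3 groups, against 3400, 2000 and 1800 bp for the other 32. None of the 8 left the TSS states at the TSS bin in any group, whereas 30 and 24 of the other 32 were in them in SD 12m and CR 12m. Neither the class nor the stretch was counted over all genes with another start within 2 kb. Whether these differences are particular to the 8 genes is therefore unknown. Starts farther than 2 kb away were not searched for. A long stretch such as the 9000 bp of Gabarap in SD 3m may therefore also reach another promoter.

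**Figure D3:**
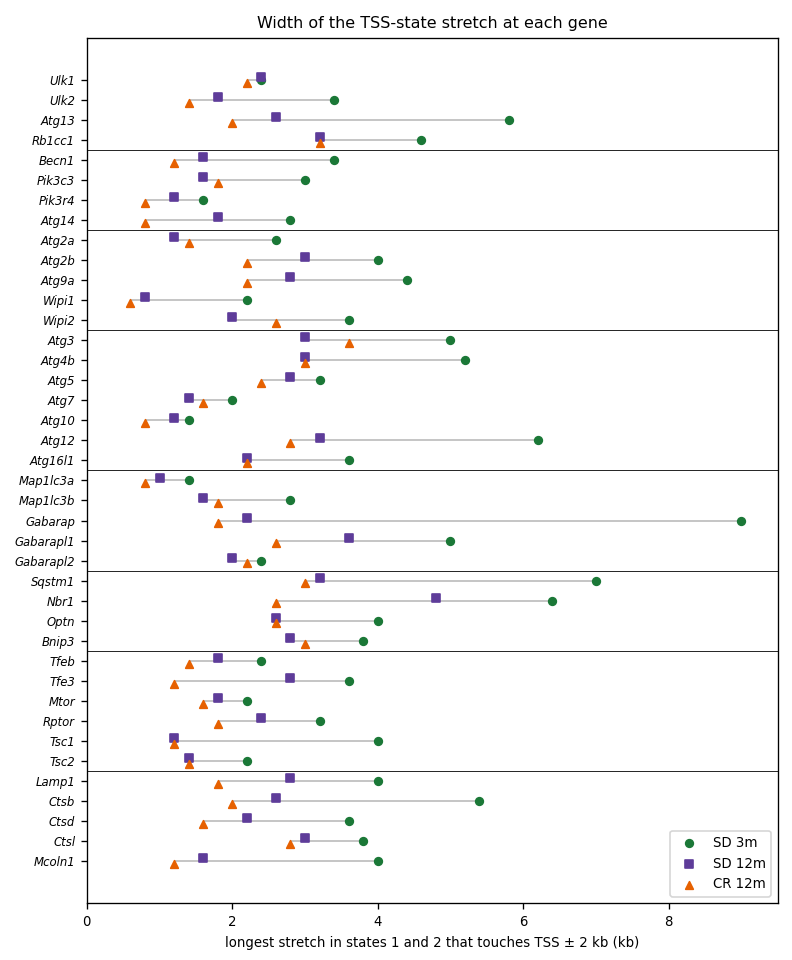
Length in kb (horizontal axis) of the longest stretch of bins in states 1 and 2 that touches the TSS ± 2 kb of each gene (rows, grouped by role), with a circle for SD 3m, a square for SD 12m and a triangle for CR 12m and a grey line over their range. SD 3m is the highest value in every row except that of Ulk1, where SD 12m equals it, and Gabarap spans the widest range, from 9 to 1.8 kb.

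The genes that encode the ULK complex stayed in TSS states at the start throughout. Ulk1, the kinase that begins autophagy, was in state 1 in the 3 groups, with 12, 12 and 11 TSS-state bins within 2 kb in SD 3m, SD 12m and CR 12m. Ulk2, its paralogue, was also in state 1, with 13, 9 and 7 bins. Ulk1 and Ulk2 thus began at a similar width and differed in CR 12m by 4 bins. Atg13, the regulatory subunit, was in state 2 in all groups and had 21, 13 and 10 bins, all but a single bin of them in state 2 in SD 3m. Rb1cc1, the scaffold subunit FIP200, was in state 1 with 21, 16 and 16 bins.

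The lipid kinase complex departed furthest at the TSS bin, with 4 of 4 genes in a TSS state in SD 3m and SD 12m and 1 of 4 in CR 12m. Becn1, which encodes the complex's scaffold Beclin 1, was in state 1, then 2, then 3 in SD 3m, SD 12m and CR 12m, and had 12, 8 and 6 TSS-state bins within 2 kb. Pik3r4, the regulatory subunit VPS15, was in states 1, 1 and 4, with 8, 6 and 4 bins. Atg14, the subunit that directs the complex to autophagosome formation, was in states 1, 1 and 3, with 12, 9 and 4 bins, and state 1 was found in 3, 3 and 0 bins of its window. The catalytic subunit Pik3c3 (VPS34) was the gene of the complex that kept state 1 at the TSS bin in the 3 groups. It had 2, 5 and 7 bins in state 1, although its TSS states together shrank from 14 bins to 8 and 9.

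Among the genes of membrane supply, all 5 stayed in TSS states at the TSS bin. Atg9a, the transmembrane scramblase on Golgi-derived vesicles, had 21, 14 and 11 TSS-state bins, and Atg2b, a lipid transfer protein, had 20, 15 and 11 bins, of which 8 were in state 1 in every group. Atg2a, its paralogue, had 13, 6 and 7 bins. Wipi2, which binds phosphatidylinositol 3-phosphate and recruits the conjugation machinery, had 18, 10 and 13 bins and was, with Atg3, the gene with the largest surplus in CR 12m over SD 12m, 3 bins. Wipi1, a relative of Wipi2, had 11, 4 and 3 bins and state 2 at the TSS bin in CR 12m, where no state 1 bin remained within 2 kb.

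All 7 genes of the conjugation machinery kept a TSS state at the TSS bin. Atg3, the E2-like enzyme that couples LC3 to lipid, had 18, 15 and 18 TSS-state bins and was the only gene of the 40 with as many in CR 12m as in SD 3m. Atg4b, the protease that primes LC3, had 21, 15 and 15 bins, and Atg12, the ubiquitin-like partner of ATG5, 21, 16 and 14 bins. Atg5 had 16, 14 and 12 bins, and Atg16l1, which positions the ATG12-ATG5 conjugate on the membrane, 14, 11 and 11. Atg16l1 was in state 2 at the TSS bin in CR 12m and in state 1 in the other groups. Atg7, the E1-like enzyme, was in state 2 throughout with 10, 7 and 8 bins, and 2 further curated start sites within the gene were in enhancer states in all groups. Atg10 had 7, 6 and 4 bins, and its state 1 bins numbered 2, 3 and 4 while its state 2 bins numbered 5, 3 and 0.

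In the Atg8 family the states at the TSS bin were uneven. Map1lc3a, which encodes LC3A, was in state 2 in SD 3m and state 3 in SD 12m and CR 12m, with 7, 5 and 4 TSS-state bins, and 3 of them were in state 1 in each group, downstream of the start. Map1lc3b, which encodes the widely used autophagosome marker LC3B, stayed in state 1 with 13, 8 and 9 bins. Gabarap was in states 2, 2 and 1, and its state 1 bins numbered 0, 1 and 4 while the window as a whole had 20, 11 and 9 TSS-state bins. Gabarapl1 was in states 2, 2 and 3 with 15, 12 and 10 bins, all 10 of which lay downstream of the start in CR 12m. Gabarapl2 was in state 1 throughout with 12, 10 and 11 bins.

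Of the cargo receptors, Sqstm1 stayed in state 2 with 21, 15 and 15 TSS-state bins and Nbr1 in state 1 with 19, 13 and 11. Optn, the receptor optineurin of mitochondria and bacteria, was in states 1, 4 and 1, with 14, 10 and 11 bins. It was the gene of the 40 whose TSS bin differed in SD 12m alone, and it had 10 TSS-state bins downstream of the start there. Bnip3, a receptor of mitochondria induced by hypoxia, stayed in state 1 with 14, 14 and 12 bins.

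Among nutrient signalling genes and transcription factors, Tfeb, the master regulator of lysosomal genes, stayed in state 1 with 12, 9 and 7 TSS-state bins, nearly all of state 1 (11, 9 and 7). A further curated start close downstream was also in state 1, whereas the last of its curated starts was in state 8 in all 3 groups. Tfe3, its paralogue on chromosome X, was in states 1, 1 and 4, with 14, 11 and 6 bins, and its state 1 bins numbered 11, 7 and 4. Its 2 other curated starts were in state 2 and state 3 in CR 12m. The kinase gene Mtor stayed in state 1 with 11, 9 and 8 bins, and Rptor, which encodes the mTORC1 subunit raptor, in state 2 with 13, 12 and 9. Of the genes that encode the mTORC1 inhibitor, Tsc1 stayed in state 1 with 16, 6 and 6 bins, and Tsc2 was in state 2 in SD 3m and in state 1 in SD 12m and CR 12m with 12, 7 and 7 bins.

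The 5 lysosomal genes were all in state 1 at the TSS bin in SD 3m and SD 12m, and 3 were in a TSS state in CR 12m. Lamp1, a main glycoprotein of the lysosomal membrane, was in state 4 in CR 12m and had 15, 13 and 8 TSS-state bins, of which 4, 4 and 1 were in state 1. The bin of its start, which holds the 4 CACGTG boxes printed above, was in an enhancer state there, as were the 10 bins upstream. Ctsb, the cysteine protease cathepsin B, was in state 3 in CR 12m and had 13, 11 and 10 bins. Ctsd, the aspartic protease cathepsin D, stayed in state 1 with 13, 11 and 8 bins, of which 2, 8 and 4 were in state 1. Ctsl, cathepsin L, had 15, 14 and 14 bins and was in state 2 in CR 12m. Mcoln1, the calcium channel of the lysosome, kept state 1 at the start but had the largest deficit of the 40 genes, with 20, 8 and 6 bins. The palindromes of Mcoln1 and Ctsd lie in the TSS bin, which was in state 1 in every group. That of Atg3 lies in the bin before the TSS bin, which was likewise in state 1 throughout.

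The deficits in TSS-state bins within 2 kb were thus unevenly spread. From SD 3m to SD 12m the largest were those of Mcoln1 (20 to 8), Tsc1 (16 to 6), Gabarap (20 to 11), Atg13 (21 to 13) and Wipi2 (18 to 10). From SD 3m to CR 12m they were those of Mcoln1 (20 to 6), Atg13 (21 to 10), Gabarap (20 to 9), Atg9a (21 to 11) and Tsc1 (16 to 6). Between the groups aged 12 months, the largest deficits of CR 12m were those of Atg14 (9 to 4), Lamp1 (13 to 8), Tfe3 (11 to 6) and Atg2b (15 to 11), and its surpluses were those of Atg3 and Wipi2, followed by a surplus of 1 bin in Atg2a, Atg7, Gabarapl2, Map1lc3b, Optn and Pik3c3. Genes with the most bins in SD 3m had the most room to have fewer.

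Gene bodies held more enhancer states in the older groups. The share of a gene body in states 3 to 5 had a median over the 40 genes of 69.1%, 80.7% and 84.7% in the 3 groups, against 33.3%, 41.4% and 45.5% for all protein-coding genes and 66.2%, 78.4% and 83.3% for the 9457. At 12 months on the standard diet it was higher than at 3 months in 34 of the 40 genes and lower in 5, against 46.3% of all genes and 73.5% of the 9457 higher. In CR 12m it was higher than in SD 3m in 37 genes and lower in 3, against 50.2% and 79.0%, and higher than in SD 12m in 30 genes and lower in 7, against 37% and 57.1%. The gene body includes the bins just after the start, so the counts hold in part the exchange of state 2 for state 3. With the first 2 kb after the TSS left out, 31, 33 and 20 of the 40 genes were higher in the 3 comparisons, in place of 34, 37 and 30. Map1lc3a, of 1710 bp, had no bins left and could not count as higher. The count of CR 12m over SD 12m thus fell most. These counts were not made for all genes or the 9457, so they have no background here. Within the enhancer states, the share of state 3 was higher than in SD 3m in 31 genes for SD 12m and 36 for CR 12m, and that of state 5 was lower in 26 and 31. Of the 9457 genes, 63.6% and 75.9% had a higher share of state 3, and 53.2% and 61.2% a lower share of state 5.

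The largest gains in CR 12m over SD 3m were those of Tfe3, Tsc2, Gabarap, Atg2a and Mtor. Tsc2, which encodes tuberin, had 17.8%, 55.1% and 82.7% of its body in enhancer states, and its share of state 8 was 78.4%, 42.7% and 14.6%. Tfe3 had 23.4%, 35.9% and 90.6% in enhancer states, with state 8 at 53.1%, 39.1% and 0.0%. Mtor had 37.3%, 49.2% and 81.5%, with state 8 at 61.1%, 49.5% and 17.4%. In both older groups the enhancer bins of these 3 genes were mostly in state 4, whose share in CR 12m was 75.1% in Tsc2, 67.2% in Tfe3 and 59.4% in Mtor. Atg2a had 40.4%, 95.2% and 94.2% in the 3 groups, its state 8 share of 51.9% in SD 3m being 0.0% in both older groups. The body of Gabarap, of 19 bins, was wholly in TSS states in SD 3m, and its share of enhancer states, all state 3, was 0.0%, 47.4% and 57.9%. The other nutrient signalling genes differed less, with 87.1%, 83.5% and 91.7% in Tfeb, 73.1%, 83.8% and 86.7% in Rptor and 34.8%, 48.0% and 51.2% in Tsc1. Wipi1 had 55.8%, 76.8% and 98.4%, and Atg4b 49.1%, 51.4% and 80.0%, with state 8 at 41.7%, 45.1% and 14.9%.

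Other genes did not share this. Pik3c3, Atg2b and Pik3r4 were quiescent beyond the promoter in all groups, with state 8 at 95.0%, 95.5% and 96.3% in Pik3c3, at 90.3%, 90.3% and 87.5% in Atg2b and at 87.6% in each group in Pik3r4. Their promoters were in TSS states in SD 3m all the same, so an active start stood next to a gene body without called marks. Atg10 had state 8 at 76.8%, 78.9% and 84.8%, and Rb1cc1 at 71.8%, 76.9% and 79.2%. These 2 were the genes with any state 7 in the body, 10.8%, 12.5% and 6.79% in Atg10 and 4.55%, 1.3% and 0.0% in Rb1cc1. Atg3 went the other way from most, with 87.9%, 74.5% and 76.5% in enhancer states and state 8 at 0.0%, 18.8% and 16.8%, and within its enhancer states state 3 held 63.8%, 35.6% and 22.8% while state 5 held 4.7%, 36.2% and 41.6%. Over the 40 genes, 3990 of 10191 gene body bins were quiescent in SD 3m, in 20 genes, and of these 14.5% were in enhancer states in SD 12m and 26.9% in CR 12m (Atg10 alone gave 1109 of the 3990). Of the 1073 such bins in CR 12m, Mtor gave 239 and Rptor 230. The same share was not counted over other genes, so whether 14.5% and 26.9% are particular to the 40 genes is unknown. No bin of state 6 was found in any of the 40 gene bodies in any group, whereas 19.0% of all protein-coding genes had such bins in SD 3m and 3.14% of the 9457.

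Ctsd showed an exchange among the enhancer states themselves. Its share of state 5 was 68.9%, 50.8% and 0.0% in the 3 groups, and those of state 3 and state 4 were 4.92%, 32.8% and 54.1% and 0.0%, 0.0% and 34.4%. Gabarapl2 had 58.1%, 9.68% and 16.1% in state 5, and Map1lc3b had 54.8%, 0.0% and 0.0%, so that in these 2 genes the lower share was present on the standard diet as well. State 5 carries H3K4me1 without H3K27ac, and states 3 and 4 carry H3K27ac, for which the 3 groups had 8, 7 and 9 libraries, against 8, 6 and 9 for H3K4me1. The part of these numbers in the exchange was not tested.

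**Figure D4:**
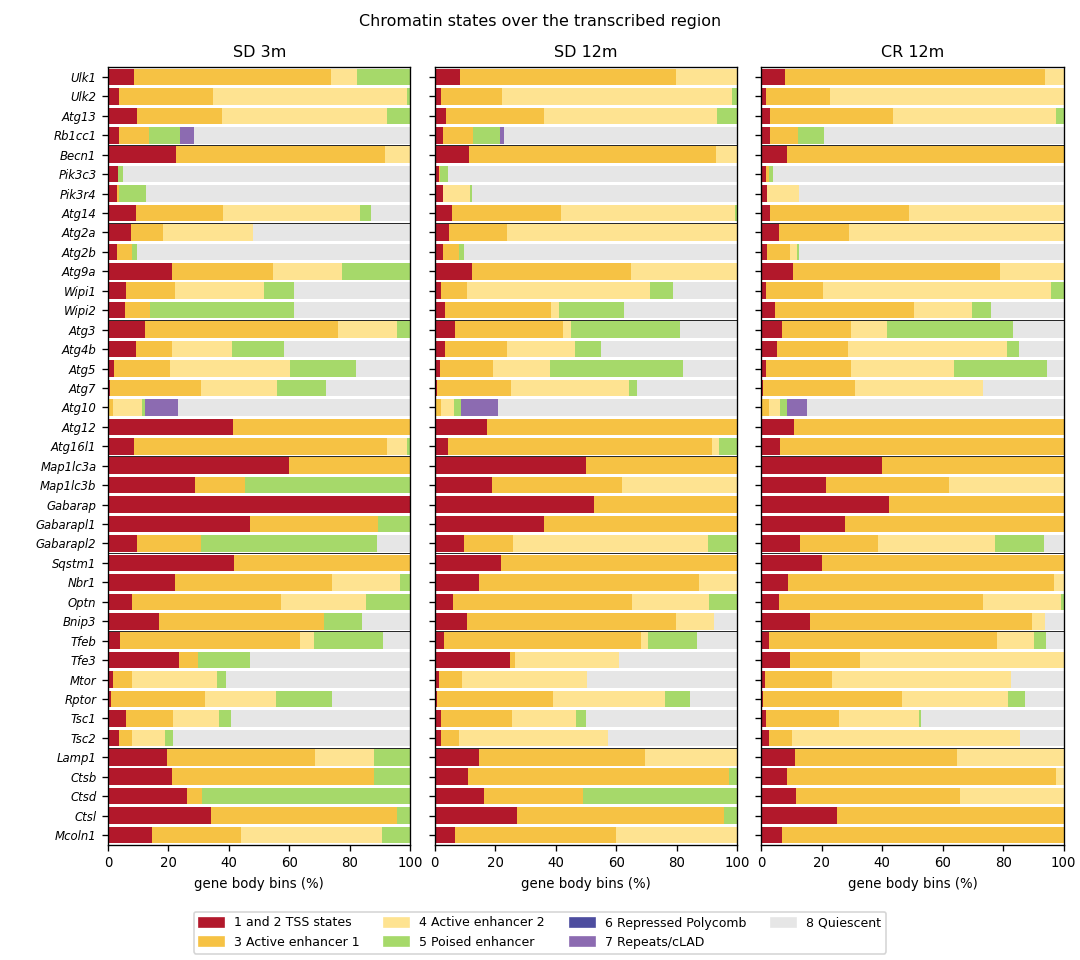
Percent of gene body bins (horizontal axis) in the TSS states combined and in states 3 to 8, for each of the 40 genes (rows, grouped by role) in SD 3m, SD 12m and CR 12m. The grey Quiescent share of Tsc2, Tfe3 and Mtor is 78.4%, 53.1% and 61.1% in SD 3m and 14.6%, 0.0% and 17.4% in CR 12m, and no bar shows Repressed Polycomb.

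The other genes of these pathways were described in the same way, as 115 genes in 4 lists of further autophagy genes, further nutrient signalling genes, subunits of the V-ATPase (the proton pump of the lysosome), and lysosomal enzymes and membrane proteins. In SD 3m 98 of them (85.2%) had the TSS bin in a TSS state, in SD 12m 92 (80.0%) and in CR 12m 71 (61.7%). Compared with SD 3m, 11 of the 98 had left the TSS states and 5 other genes had entered them in SD 12m, and 30 of the 98 had left and 3 others had entered in CR 12m, against the 16% and 25.9% of the 9457 genes that had left. The lysosomal enzymes and membrane proteins went from 32 of 42 in a TSS state to 31 and then 18, and the further autophagy genes from 27 of 29 to 24 and 18. The V-ATPase genes had 15, 12 and 13 of 16 and the nutrient signalling genes 24, 25 and 22 of 28. Further autophagy genes that had left in CR 12m were Atg16l2, Atg4d, Bnip3l, Rab7, Stx17, Uvrag, Vps33a, Wdr45 and Zfyve1, of which Rab7, Vps33a and Zfyve1 had also left in SD 12m. Over the 115 genes the longest TSS-state stretch had a median of 3000 bp, 1800 bp and 1400 bp in the 3 groups. It was shorter than in SD 3m in 103 of the 115 genes for SD 12m and 109 for CR 12m, against 92.8% and 95.7% of the 9457 genes. The 2 sets are not alike, since the 9457 were all in a TSS state in SD 3m and only 98 of the 115 were.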

How the data were processed

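Livers of C57BL/6 female mice were profiled by ChIP-seq for H3K4me3, H3K27me3, H3K27ac and H3K4me1. The authors aligned reads to mm10 (BWA 0.6.2-r126 and SAMtools 0.1.18 per the labels), merged the libraries of each group and deposited ChromHMM segmentations, 1 label of 8 states for every 200-bp bin, 13168874 bins per group; the binarization and read depth behind a label could not be examined. Groups came from the labels. SD 6m was not analysed here.

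States were read with Python 3.11.15, numpy 2.4.6 and pandas 2.3.3 at the TSS of the longest curated RefSeq transcript of GRCm38.p6, whose chromosome lengths fit the bins. No filter was applied, and the readers were tested on simulated segmentations. Genes were named by rule: those with another class at the TSS bin in any group, the 5 largest differences each way in TSS-state bins for each comparison, and the 5 largest shares and differences of states 7 and 8 in the gene body. Other genes complete their role group. Genes singled out for stretch width, for gains in enhancer states or for the exchange of state 5 were picked from the results, outside this rule. The 40 genes and all lists were chosen with earlier results of these data known. Of 117 further pathway symbols, 2 were not found. Mice could not be compared, since states were deposited per group.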

Additional observations from a re-analysis of the deposited data

Results flagged for a closer look

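For 2 of the 40 genes, SD 12m and CR 12m lay on opposite sides of SD 3m in the share of the gene body in states 3 to 5. In Atg7 the share was 71.3%, 66.2% and 72.6% in the 3 groups, so that CR 12m exceeded SD 12m by 6.4 percentage points. In Tfeb it was 87.1%, 83.5% and 91.7%, a gap of 8.2 percentage points. With 1 segmentation per group, the difference was not tested. No gene was on opposite sides in TSS-state bins within 2 kb or in the longest stretch.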

How the results depend on the processing

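Of 48 values under alternatives fixed with the design, 44 stayed within 1.5 times the reported count. Some of the 44 lay at that limit. With the first 2 kb after the TSS left out, 20 genes had a higher gene body share of states 3 to 5 in CR 12m than in SD 12m, in place of 30. With only stretches of at least 1 kb kept, 3 genes had another class at the TSS bin in SD 12m than in SD 3m, in place of 2. With the 8 states as deposited, 12 genes differed at the TSS bin between CR 12m and SD 12m, in place of 8. The 4 values beyond the limit are given next. With the 8 states as deposited in place of 5 classes, 4 genes differed at the TSS bin between SD 12m and SD 3m and 13 between CR 12m and SD 3m, in place of 2 and 8, since exchanges of states 1 and 2 then count. With state 1 alone, the genes with fewer bins within 2 kb numbered 6 for SD 12m and 21 for CR 12m, in place of 38 and 39, as the missing bins were mostly of state 2. The most upstream start was the start used for all 40 genes, so that alternative could not differ, and its values are among the 44. The values for the 39 autosomal genes, also among them, leave out Tfe3 alone and could differ little. Replicates could not be left out, since the authors merged the libraries. No paired analysis was possible because each group has 1 merged segmentation and the results come from no test. Depth is unknown, and its part in the states called was not tested.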
